A study of Mus musculus with 2 samples.

Results

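Progenitor-like fibroblasts rich in Clec3b, Pi16 and C3 made up 90 of the 2727 barcodes kept from 2 single-cell RNA libraries of mouse breast tumours. The Met-1 transplant library held 80 of them among 2135 kept barcodes and the PyMT tumour library held 10 among 592. A barcode was kept with at least 500 UMIs (unique molecular identifiers, each counting 1 captured RNA) and at most 10% of them from mitochondrial genes. A kept barcode was a member with at least 20 UMIs of Col1a1, Col1a2 and Col3a1 together, at most 4 UMIs of Rgs5, Higd1b, Abcc9 and Kcnj8, genes of pericytes, and at most 5 of the keratins Krt8 and Krt18. It also needed more UMIs of Clec3b, Pi16, C3, Tnxb and Ly6c1 than of Cilp, Thbs4, Tnc, Col12a1 and Col8a1. Members were thus chosen by the measured UMIs of these genes. Within the members, cells with more Gdf10 than Pi16 UMIs are called Gdf10-dominant and those with more Pi16 than Gdf10 UMIs Pi16-dominant.

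Each tumour type was measured in 1 library, so the libraries were set side by side without a test. Both came from C57BL/6 inAd-Chaser-mTmG mice, which carry Adiponectin-rtTA, TRE-Cre and a Rosa26 mT/mG reporter. Doxycycline makes rtTA, driven by the promoter of the adipocyte gene adiponectin, switch on Cre, and Cre replaces membrane tdTomato by membrane EGFP for good. Cells from both tumours were sorted as EGFP+ and tdTomato- after that doxycycline pulse. The Met-1 transplant is named from its tissue label, a Met-1 xenograft tumor, whereas the series text names EO771 as the implanted line. The PyMT tumour arose in mice that also carry the PyMT transgene. The labels give no age or number of mice for either library and do not say whether tumours were pooled.

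Fibroblasts that express Pi16 and Dpp4 lie in the adventitia of vessels and in connective tissue sheets of many organs, including adipose tissue, where they are regarded as a progenitor pool for more specialised fibroblasts and preadipocytes. In mouse adipose tissue a second population, marked by Gdf10 and by F3, which encodes CD142, has been described as restraining adipocyte formation. Myofibroblastic fibroblasts, in contrast, are contractile cells that lay down scar and tumour matrix. Pi16 encodes a secreted peptidase inhibitor that is widely used as the marker of the first population, and Gdf10 encodes a secreted member of the TGF-beta superfamily.

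The promoters of the 2 genes that divide the members are shown because that division is the contrast within these cells. They are the 250 bases upstream of each annotated start, from RefSeq on build GRCm38.p6, both read on the + strand. The Gdf10 promoter lies on chromosome 14 at chr14:33923337-33923586 and the Pi16 promoter on chromosome 17 at chr17:29318632-29318881. Capitals mark the GC box, searched as GGGCGG or its reverse complement CCGCCC, with overlapping matches counted.
Gdf10: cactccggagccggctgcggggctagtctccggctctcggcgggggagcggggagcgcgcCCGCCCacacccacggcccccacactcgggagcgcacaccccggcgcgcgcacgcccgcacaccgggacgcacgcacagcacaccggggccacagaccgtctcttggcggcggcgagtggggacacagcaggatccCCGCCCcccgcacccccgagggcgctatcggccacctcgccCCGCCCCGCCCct
Pi16: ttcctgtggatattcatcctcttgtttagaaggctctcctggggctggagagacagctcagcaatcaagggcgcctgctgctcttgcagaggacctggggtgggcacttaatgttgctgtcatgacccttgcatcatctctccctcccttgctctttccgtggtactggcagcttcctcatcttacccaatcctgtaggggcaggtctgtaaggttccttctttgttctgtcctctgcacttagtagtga
The Gdf10 promoter was 78.8% G and C and held 4 GC boxes, a motif present in 32.7% of the 32851 promoters of the same length. The Pi16 promoter was 52.4% G and C, which equals the median over those promoters, and held 0 GC boxes. Neither held the TATA box TATAAA, present in 12.4% of promoters, or the E-box CAGCTG, present in 13% of promoters. These matches describe letters in the windows only.

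The members formed 3.75% of the Met-1 transplant barcodes (95% interval 2.98 to 4.64) and 1.69% of the PyMT tumour barcodes (95% interval 0.813 to 3.08). These are exact Clopper-Pearson intervals, and like every interval here they reflect the number of cells or UMIs counted and nothing of how mice or tumours vary. Sorting and tissue digestion can set such shares. Of the barcodes that met the collagen, pericyte and keratin limits, the members were 80 of 249 in the Met-1 transplant and all 10 of 10 in the PyMT tumour. The other 169 Met-1 transplant fibroblasts, in which the second score was at least equal to the first, are called myofibroblastic here. The libraries shared 0 cell barcodes.

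**Figure D1:**
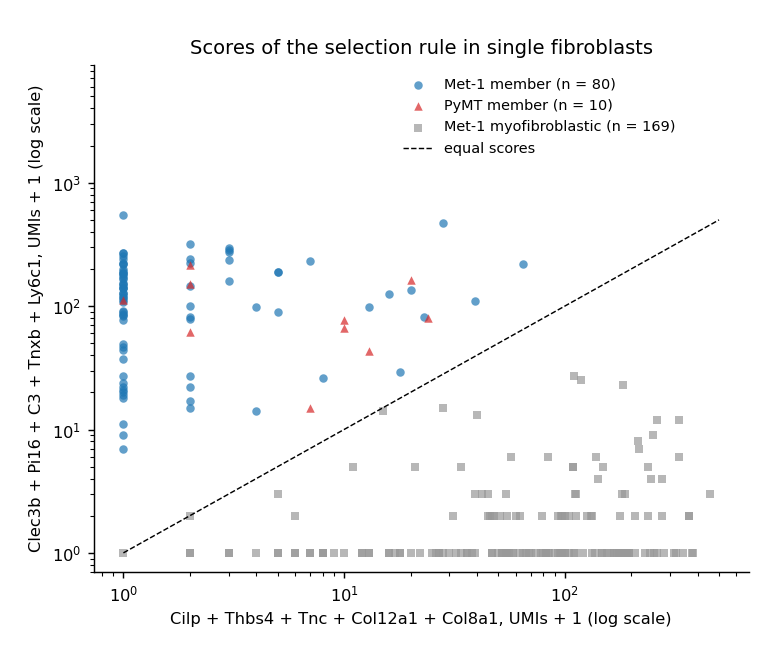
UMIs of the 5 progenitor genes (vertical axis, UMIs + 1, log scale) against UMIs of the 5 myofibroblastic genes (horizontal axis, UMIs + 1, log scale) in each of the 259 fibroblasts, by library and class. The members lie above the dashed line of equal scores, and the smallest difference inside the rule was 6 UMIs in the Met-1 transplant and 8 UMIs in the PyMT tumour.

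The 2 scores chose the members, so their values are a description. The progenitor score ranged over 6 to 542 UMIs per cell with a median of 122.5 in Met-1 transplant members, and over 14 to 215 UMIs with a median of 77.5 in PyMT tumour members. The myofibroblastic score had a median of 0 UMIs and a maximum of 64 UMIs in Met-1 transplant members, against a median of 7.5 UMIs and a maximum of 23 UMIs in PyMT tumour members. No member had a difference of 1 to 5 UMIs between the scores, and 14 Met-1 transplant cells lay just outside with differences of 0 to -5 UMIs. The collagen limit was close for 4 Met-1 transplant members with 20 to 30 UMIs and for 3 barcodes with 10 to 19 UMIs outside it. The pericyte limit alone left out 3 further Met-1 transplant barcodes.

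The members were sampled at similar depth in both tumours. Met-1 transplant members held 1099054 UMIs in all, from 664 to 38048 per cell with a median of 13072, and PyMT tumour members held 119247 UMIs in all, from 5213 to 19930 per cell with a median of 12337. The medians were 3491 and 3301 detected genes per cell in Met-1 transplant and PyMT tumour members. Summed counts are given below as CPM, counts per 1000000 UMIs of the same cells, with exact Poisson 95% intervals. A gene entered a comparison when its mean CPM over both groups was at least 100, and a 2-fold ratio of (CPM + 10), upward or downward, was the limit for calling it higher or lower. Log2 values are on that log2(CPM + 10) scale, which understates the change of low genes, and fold values are ratios of CPM.

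Of the 6 markers listed for the label, Clec3b, Pi16, C3 and Ly6c1 belong to the selection rule, so their presence in members was largely fixed by it and is given as a description. Clec3b, which encodes the plasminogen-binding protein tetranectin, had 1 to 119 UMIs per cell with a median of 32 in Met-1 transplant members, and 0 to 53 with a median of 22 in PyMT tumour members. It was present in all 80 Met-1 transplant members and in 9 of 10 PyMT tumour members, and in the 326 and 40 T cells of those libraries it reached 3.85 and 0 CPM. Ly6c1, a surface protein, was found in 75 of 80 Met-1 transplant members and in 10 of 10 PyMT tumour members. Dpp4, a surface peptidase that the rule did not use, was present in 45 of 80 Met-1 transplant members and 6 of 10 PyMT tumour members. After thinning to 1000 UMIs per cell, which left out 3 Met-1 transplant members and 0 PyMT tumour members, Dpp4 was seen in 17 of 77 and in 1 of 10 cells. Dpp4 was seen in 47 of 326 Met-1 transplant T cells and 1 of 40 PyMT tumour T cells, whose median depths were 8069.5 and 3907.5 UMIs; T cells are themselves known to express Dpp4.

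Markers of several other cell types were absent from members and those of others were present at low levels. All 5 adipocyte markers (Adipoq, Plin1, Cidec, Lep and Adrb3) were at 0 UMIs in all 90 members, which at these totals allows up to 2.73 CPM per marker in the Met-1 transplant and up to 25.2 CPM in the PyMT tumour. The basal keratins Krt5, Krt14 and Krt17 and the tendon genes Scx and Tnmd were also at 0 in both libraries. Of 8 macrophage markers, 8 were detected in Met-1 transplant members at 278 CPM together and 4 in PyMT tumour members at 159 CPM, with Adgre1, Csf1r, Cd68 and Fcgr1 at 0 in PyMT tumour members. In the Met-1 transplant, 198 of those 306 macrophage UMIs lay in 1 cell, and 60 of 68 T-cell marker UMIs lay in 1 cell. Pericyte markers, of which the rule limits 4, stood at 81.9 CPM in Met-1 transplant members, with UMIs in 44 of 80 cells and at most 4 in a cell, and at 8.39 CPM in PyMT tumour members, with 1 UMI. Luminal epithelium markers stood at 44.6 CPM in Met-1 transplant members (27 of 80 cells) and 151 CPM in PyMT tumour members (7 of 10 cells), beside 113 and 258 CPM in T cells of those libraries. Neutrophil markers stood at 6.37 CPM in Met-1 transplant members (7 of 80 cells) and 101 CPM in PyMT tumour members (9 of 10 cells), beside 9.80 and 78.2 CPM in T cells. Immune marker UMIs numbered 5 or more in 5 Met-1 transplant and 2 PyMT tumour members, and each count of genes below stayed within 1.5 times its value without them.

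EGFP, the reporter that was sorted for, was lower in members than in neighbouring cells of the Met-1 transplant. It reached 1334 CPM in Met-1 transplant members (0 to 74 UMIs per cell, median 8) and 612 CPM in PyMT tumour members (0 to 50 UMIs, median 2.5). The Met-1 transplant myofibroblastic cells held 2970 CPM. EGFP was present in 73 of 80 Met-1 transplant members and in 7 of 10 PyMT tumour members, and 50 of the 73 PyMT tumour UMIs lay in 1 cell. T cells, which do not descend from adipocytes, held 2443 CPM of EGFP in the Met-1 transplant and 1510 CPM in the PyMT tumour, with UMIs in 319 of 326 and in 19 of 40 cells. After thinning, EGFP was seen in 44 of 77 members against 267 of 323 T cells in the Met-1 transplant, and in 2 of 10 members against 15 of 40 T cells in the PyMT tumour. At equal depth the share of members with EGFP was thus below that of T cells in the Met-1 transplant. In the PyMT tumour the observed share was also lower, but 10 members do not resolve the order. These counts were therefore not used to trace the origin of the members.

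Within the Met-1 transplant the members split into 25 Gdf10-dominant cells (31.2%, 95% interval 21.3 to 42.6) and 53 Pi16-dominant cells, with 2 cells at 0 for both genes. In the PyMT tumour 0 of 10 members were Gdf10-dominant, which allows a share of up to 30% by the limit of 3 counts, and all 10 were Pi16-dominant. The Met-1 transplant share lies near that limit, so no difference in share was detectable with 10 cells. Gdf10 had 1 to 18 UMIs per cell with a median of 5 in Gdf10-dominant cells and 0 to 5 with a median of 0 in Pi16-dominant cells of the Met-1 transplant. Pi16 had 0 to 3 UMIs per cell with a median of 0 in Gdf10-dominant cells, 1 to 271 with a median of 23 in Pi16-dominant cells of the Met-1 transplant and 3 to 108 with a median of 29 in the PyMT tumour. Both genes were detected together in 17 of 80 Met-1 transplant members and in 2 of 10 PyMT tumour members. Only 3 Met-1 transplant members and 1 PyMT tumour member had at least 3 UMIs of each.

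**Figure D2:**
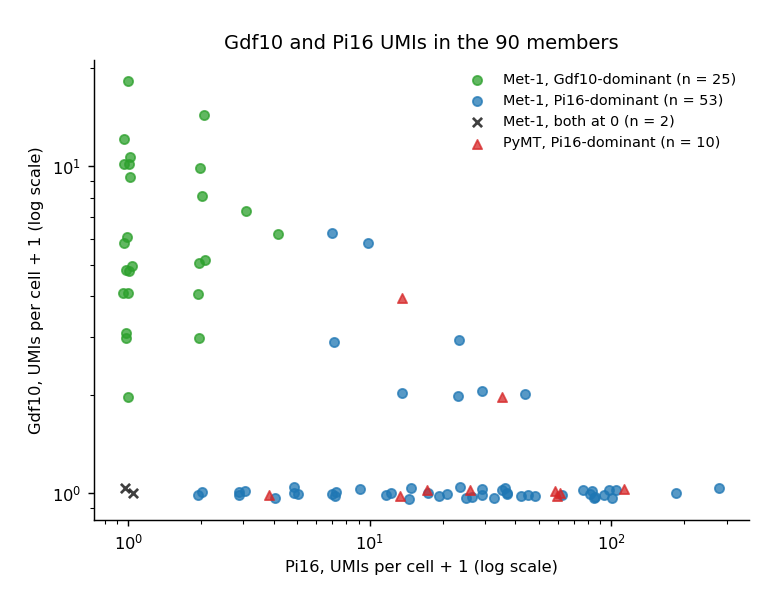
Gdf10 UMIs (vertical axis, UMIs per cell + 1, log scale) against Pi16 UMIs (horizontal axis, UMIs per cell + 1, log scale) in the 90 members, with a small offset so that equal values show. Met-1 transplant cells spread along both axes, with 17 of 80 holding UMIs of both genes, and the 10 PyMT tumour cells follow the Pi16 axis.

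The split rests on few UMIs in some cells. In 12 Met-1 transplant members the genes differed by 1 or 2 UMIs, and 19 Gdf10-dominant and 47 Pi16-dominant cells differed by at least 3 UMIs. Median depth was 11870 UMIs in Gdf10-dominant cells and 13684 UMIs in Pi16-dominant cells of the Met-1 transplant.

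Gdf10-dominant and Pi16-dominant cells of the Met-1 transplant had similar levels of Clec3b, C3 and Ly6c1, all rule genes, but differed in Pi16, Dpp4 and Gdf10 and in a broad set of other genes. Of 1472 genes measured, 57 were higher in Gdf10-dominant cells (3.87%) and 88 were lower (5.98%), which together is 9.85%, with a median log2 ratio of 0.02 over all genes. The rule used Gdf10 and Pi16 in these same cells, so the gene values below describe the cells and carry no test. C3, the central complement protein, was 2868 CPM in Gdf10-dominant and 2349 CPM in Pi16-dominant cells, Clec3b was 2426 CPM in Gdf10-dominant and 2985 CPM in Pi16-dominant cells, and Ly6c1 was 1361 and 1698 CPM. Col1a1 was likewise 7135 CPM in Gdf10-dominant and 7620 CPM in Pi16-dominant cells. Ly6a, which encodes the stem and progenitor antigen Sca-1, was 3124 CPM in Gdf10-dominant and 3429 CPM in Pi16-dominant cells.

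Most measured genes of the Pi16 and Dpp4 progenitor list were lower in Gdf10-dominant cells. Of the 24 measured genes of that list, 17 were lower and 0 higher in Gdf10-dominant cells, with a list median log2 of -1.47; the list holds Pi16 itself. Dpp4 was 40.5 CPM in Gdf10-dominant cells (4 of 25 cells with a UMI) and 355 CPM in Pi16-dominant cells (41 of 53 cells), which is 8.77-fold lower (95% interval 5.04 to 16.7). Cd55, which protects cells from complement, was 52.9 and 593 CPM in Gdf10-dominant and Pi16-dominant cells, 11.2-fold lower. Wnt2, a secreted Wnt ligand, was 24.9 CPM in Gdf10-dominant and 212 CPM in Pi16-dominant cells. Sema3c, a secreted guidance factor, was 93.4 CPM in Gdf10-dominant and 712 CPM in Pi16-dominant cells, and Anxa3, a membrane-binding annexin, was 128 and 972 CPM. Creb5, a transcription factor, had 6 UMIs in 3 of 25 Gdf10-dominant cells and 208 UMIs in 43 of 53 Pi16-dominant cells.

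Of 20 measured proteoglycan and elastic fibre genes, 8 were lower in Gdf10-dominant cells, 2 were higher and 10 were within 2-fold. Fbn1, which encodes the microfibril protein fibrillin-1, was 645 CPM in Gdf10-dominant and 2208 CPM in Pi16-dominant cells, and its partner Mfap5 was 688 and 2360 CPM. The small leucine-rich proteoglycans Ogn and Aspn were 5.53-fold and 20.3-fold lower in Gdf10-dominant cells, with 125 against 690 CPM of Ogn and 18.7 against 379 CPM of Aspn. Cthrc1 and Postn, matrix proteins of activated fibroblasts, were also lower, with 21.8 CPM of Cthrc1 and 243 CPM of Postn in Gdf10-dominant cells against 304 CPM and 731 CPM in Pi16-dominant cells. Timp3, an inhibitor of matrix proteases, was 103 CPM in Gdf10-dominant and 491 CPM in Pi16-dominant cells. Podn and Ltbp4 were the 2 list genes that were higher in Gdf10-dominant cells, with Ltbp4, which anchors latent TGF-beta, at 548 CPM against 213 CPM.

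The largest differences beyond Pi16 itself concerned an enzyme of retinoid metabolism, an aldo-keto reductase and an IGF-binding protein. Akr1c18, a reductase that inactivates progesterone, had 0 UMIs in Gdf10-dominant cells and 194 UMIs in 21 of 53 Pi16-dominant cells, at least 27.1-fold lower against a floor of 3 counts over the group. Aldh1a3, which makes retinoic acid, had 0 UMIs in Gdf10-dominant cells and 155 UMIs in 29 of 53 Pi16-dominant cells, at least 21.7-fold lower. PyMT tumour members held 21 UMIs of Akr1c18 and 21 UMIs of Aldh1a3, which is 176 CPM for each gene, and 18 of those 21 Akr1c18 UMIs lay in 1 cell. Igfbp5 was 134 CPM in Gdf10-dominant and 2795 CPM in Pi16-dominant cells, 20.9-fold lower (95% interval 15.4 to 28.9), and 23 of the 43 Gdf10-dominant UMIs lay in 1 cell. Igfbp5 also varied among Pi16-dominant cells, from 0 UMIs in 13 of 53 cells to 297 UMIs in 1 cell, and from 0 to 124 UMIs in the 10 PyMT tumour cells. Pla1a, a phospholipase, was 28.0 CPM in Gdf10-dominant and 422 CPM in Pi16-dominant cells.

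On the other side, Gdf10-dominant cells carried more RNA than Pi16-dominant cells of several Gdf10-type stromal genes and several genes of committed preadipocytes. Of 8 measured genes of the Gdf10 and CD142 list, 4 were higher and 0 lower, Gdf10 among them. Meox2, a homeobox transcription factor, was 240 CPM in Gdf10-dominant cells (20 of 25 cells) and 26.1 CPM in Pi16-dominant cells (12 of 53 cells), 9.18-fold higher (95% interval 5.56 to 15.9). F3, which encodes CD142, was 396 CPM in Gdf10-dominant and 116 CPM in Pi16-dominant cells. Cygb, which encodes cytoglobin, was 1489 CPM in Gdf10-dominant and 618 CPM in Pi16-dominant cells. Nr2f2, a nuclear receptor, was 181 CPM in Gdf10-dominant and 22.2 CPM in Pi16-dominant cells, with UMIs in 20 of 25 and 12 of 53 cells.

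Of 10 measured preadipocyte genes, 6 were higher in Gdf10-dominant cells and 0 lower, with a list median log2 of 1.13. The list is not particular to members. Against the myofibroblastic cells of the Met-1 transplant, 10.4% of all genes were higher in all members and 10.8% were lower. Of the 12 measured list genes, 2 were higher in all members and 7 were lower. Sparcl1, Col4a1, Col4a2 and Col15a1 were among the lower, and the list median log2 was -1.12. Apoe, the lipid carrier apolipoprotein E, was 2526 CPM in Gdf10-dominant and 650 CPM in Pi16-dominant cells. Macrophages also express Apoe, and the macrophage markers stood at 159 CPM in Gdf10-dominant and 333 CPM in Pi16-dominant cells. That order rested on 1 Pi16-dominant cell, which held 198 of the 255 UMIs, and without the top cell of each group the levels were 66.1 CPM in Gdf10-dominant and 76.6 CPM in Pi16-dominant cells. The part of macrophage RNA in the Apoe value was not tested. Sparcl1, a matrix-associated protein, was 651 and 162 CPM, and Apod, another lipid carrier, was 1685 and 751 CPM in Gdf10-dominant and Pi16-dominant cells. The basement membrane collagens Col4a1, Col4a2 and Col15a1 were 888, 408 and 299 CPM in Gdf10-dominant cells against 406, 179 and 99.2 CPM in Pi16-dominant cells. Pericyte markers moved the same way, with 118 CPM in Gdf10-dominant cells (38 UMIs in 18 of 25 cells) and 65.3 CPM in Pi16-dominant cells (50 UMIs in 25 of 53 cells). The 115 kept Met-1 transplant barcodes past the collagen limit with more than 4 pericyte gene UMIs held 5228 CPM of Col4a1, 2576 CPM of Sparcl1 and 7656 CPM of Igfbp7, and the part of pericyte RNA in these values was not tested. The basement membrane list as a whole had 4 genes higher and 2 lower of 12, since the laminins Lama4 and Lamc1 were lower, with 134 against 321 CPM of Lama4. The adipocyte identity list had 0 of 15 genes at the level for measurement.

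The IGF system differed in both directions. Igfbp7 was 5067 CPM in Gdf10-dominant cells, from 5 to 198 UMIs per cell and present in 25 of 25, against 1472 CPM in Pi16-dominant cells, present in 43 of 53. Igfbp4 was 2516 CPM in Gdf10-dominant and 986 CPM in Pi16-dominant cells, and the ligand Igf1 was 626 and 244 CPM, which with Igfbp7 makes 3 of 5 measured genes higher and Igfbp5 1 lower. Myofibroblastic cells of the Met-1 transplant held 4842 CPM of Igfbp7. Complement showed 2 of 8 genes higher, among them C2, a protease precursor of the classical pathway, at 339 CPM in Gdf10-dominant and 128 CPM in Pi16-dominant cells, and Cd55 lower. Of 10 chemokines and cytokines 3 were higher, among them Cxcl12, which binds CXCR4, at 1750 CPM in Gdf10-dominant and 748 CPM in Pi16-dominant cells.

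**Figure D3:**
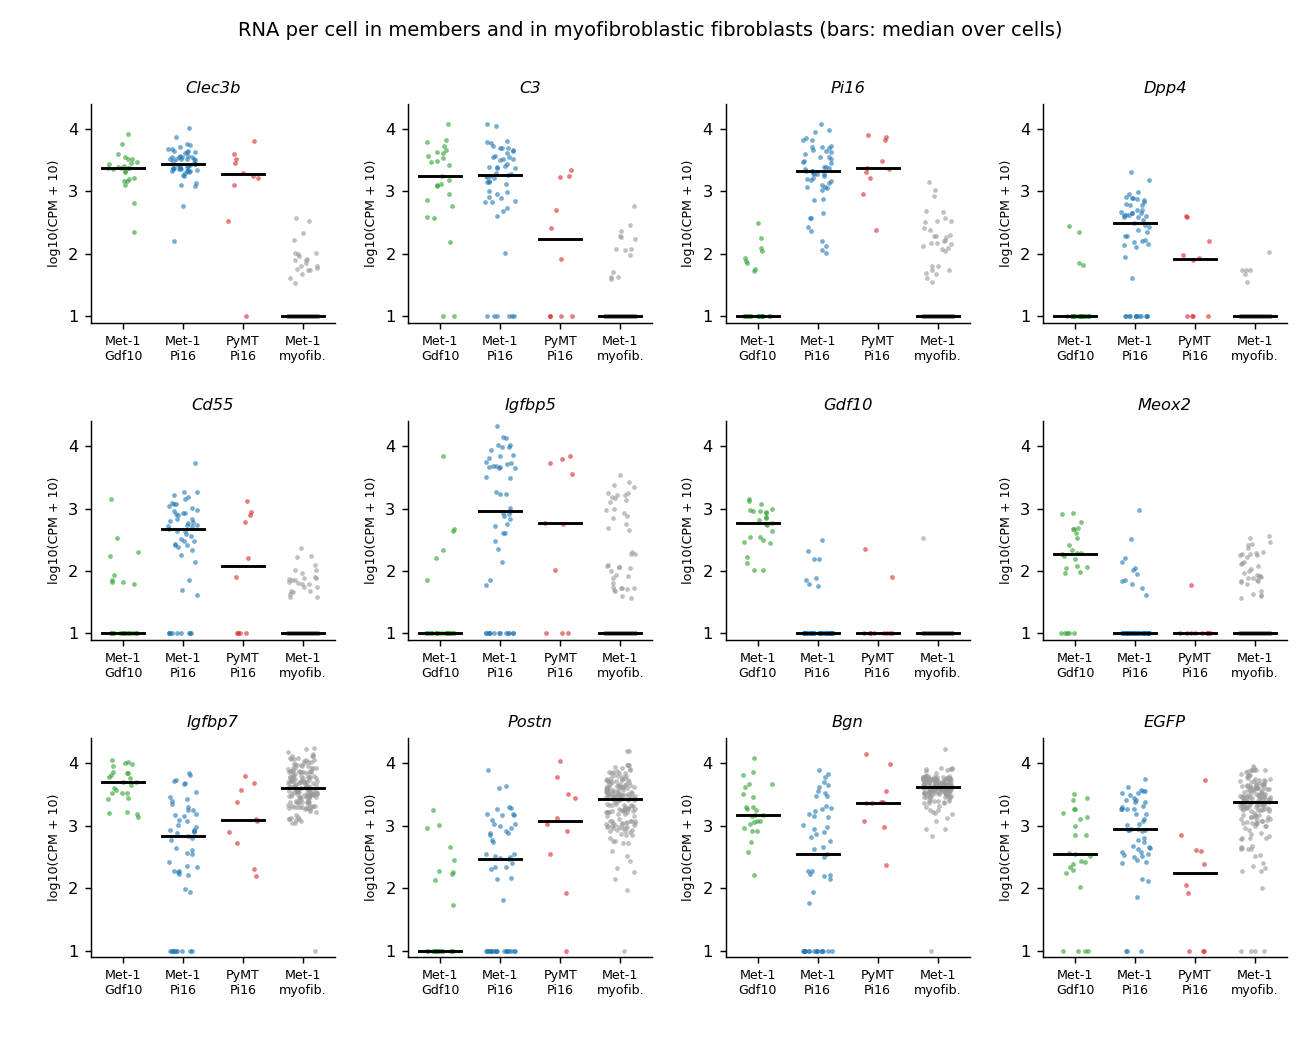
RNA of 12 genes in each cell, as log10(CPM + 10), in Gdf10-dominant members of the Met-1 transplant (25 cells), Pi16-dominant members of the Met-1 transplant (53 cells) and of the PyMT tumour (10 cells), and myofibroblastic fibroblasts of the Met-1 transplant (169 cells); black bars are medians over cells. Clec3b is high in all 3 member groups, Dpp4 and Cd55 are at 0 in most Gdf10-dominant cells, and Igfbp7, at 5067 CPM in Gdf10-dominant and 4842 CPM in myofibroblastic cells, is lower in most Pi16-dominant cells.

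Some of the listed differences lay in few cells. Of the 190 Cxcl1 UMIs in Gdf10-dominant cells 142 lay in 1 cell, and without the top cell of each group its log2 ratio was 1.20 instead of 2.65. Cxcl10 UMIs lay in 3 of 25 Gdf10-dominant cells, with 70 of 115 in 1 cell, and 56 of 93 Stmn1 UMIs lay in 1 of 5 positive cells. Hspb1, a small heat shock protein, was 614 CPM in Gdf10-dominant and 176 CPM in Pi16-dominant cells with 167 of 197 UMIs in 1 cell, and its log2 ratio of 1.74 became -0.49 without the top cells. Dnajb1 behaved alike, with log2 ratios of 1.04 and -0.58 with and without them. Tmem176a, Tmem176b, Inmt, Ifitm1 and Cp, which were also among the 12 highest, had UMIs in 12 to 21 of 25 Gdf10-dominant cells and kept log2 ratios of 1.94 to 3.12 without the top cells.

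The members of the Met-1 transplant were then set against those of the PyMT tumour. Met-1 transplant members carried more RNA of several complement genes, preadipocyte genes and mesenchymal transcription factors that passed the 100 CPM mean. PyMT tumour members carried more RNA of several matrix genes of activated fibroblasts. Gdf10-dominant cells made up 25 of the 80 Met-1 transplant members and 0 of the 10 PyMT tumour members, and without them the counts for the first 3 lists were lower, as given with each list. Over all genes, 7.98% were higher and 8.92% were lower among Pi16-dominant cells alone. Of 1478 genes measured, 121 were higher in Met-1 transplant members (8.19%) and 139 were lower (9.4%). The median log2 ratio over all genes was -0.16, and centred on it the numbers were 155 higher and 99 lower. A gene could pass the mean of 100 CPM through 1 group alone. With at least 50 UMIs required in both groups, only 376 genes were measured, 10 of them higher and 50 lower. The list counts below use the 100 CPM mean and include genes with few PyMT tumour UMIs. Among the genes called higher in the complement, preadipocyte and transcription factor lists, only C3, a rule gene, had at least 50 UMIs in PyMT tumour members. The others, the highest being Apoe at 377 CPM, would not enter with 50 UMIs required in both groups. The tumour type and the library cannot be told apart.

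C3, which was part of the selection score, was 2488 CPM in Met-1 transplant members (95% interval 2395 to 2583) and 512 CPM in PyMT tumour members (391 to 657), a 4.86-fold difference (3.77 to 6.38). It was detected in 72 of 80 Met-1 transplant members, with 0 to 138 UMIs per cell and a median of 22, and in 6 of 10 PyMT tumour members, with 0 to 26 UMIs and a median of 3. The ranges overlapped. The complement list had 4 of 9 genes higher and 0 lower, with a list median log2 of 0.97. Among Pi16-dominant cells alone it had 2 of 9 higher, C3 and C1s1, and a list median log2 of 0.61. The protease C1s1, which starts the classical pathway, was 972 CPM in Met-1 transplant and 344 CPM in PyMT tumour members, and C2 was 192 and 83.9 CPM. By contrast Clec3b was 2792 CPM in Met-1 transplant and 2147 CPM in PyMT tumour members, and Ly6c1 was 1584 and 1426 CPM, which are below the 2-fold limit. Pi16 was 1878 CPM in Met-1 transplant and 3271 CPM in PyMT tumour members, also below the limit.

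Of 10 measured preadipocyte genes, 7 were higher in Met-1 transplant members and 0 lower, with a list median log2 of 1.49. Apod was 1022 CPM in Met-1 transplant and 268 CPM in PyMT tumour members, and Apoe was 1227 and 377 CPM. Lpl, which releases fatty acids from lipoproteins, was 382 CPM in Met-1 transplant and 126 CPM in PyMT tumour members. Pdgfra, a receptor that marks fibroblasts and adipocyte progenitors, was 297 CPM in Met-1 transplant and 109 CPM in PyMT tumour members. Sparcl1 and Cxcl14 UMIs were found in 2 of 10 PyMT tumour members each, with 9 of 10 UMIs of Sparcl1 and 14 of 16 UMIs of Cxcl14 in 1 cell. Pericyte markers, at 81.9 CPM in Met-1 transplant and 8.39 CPM in PyMT tumour members, moved with this list, and their part in it was not tested. With the Gdf10-dominant cells left out, 5 of 10 measured genes were higher (Cxcl14, Apod, Lpl, Pdgfra and Col4a1), and the list median log2 was 0.95.

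Of 7 measured mesenchymal transcription factors 4 were higher in Met-1 transplant members and 0 lower. Osr1, a zinc finger factor, was 182 CPM in Met-1 transplant and 41.9 CPM in PyMT tumour members, a ratio of 4.34 (95% interval 1.83 to 13.5). Zeb2 was 311 and 83.9 CPM, a ratio of 3.71 (1.99 to 7.81). Nfix was 600 and 201 CPM, a ratio of 2.98 (1.98 to 4.68). The homeobox factor Prrx1 was 535 and 243 CPM, a ratio of 2.20 (1.52 to 3.31). Among Pi16-dominant cells alone 2 of 6 measured factors were higher, Nfix and Zeb2. Matrix proteases and their inhibitors differed in both directions, with 4 of 17 measured genes higher, 2 lower and a list median log2 of -0.13. Mmp14, a membrane-bound matrix metalloprotease, was 471 CPM in Met-1 transplant and 134 CPM in PyMT tumour members. Adamts5, which cleaves proteoglycans, was 775 and 268 CPM. The 2 lower genes were Htra3, at 771 CPM in Met-1 transplant and 2164 CPM in PyMT tumour members, and Timp1, at 238 and 562 CPM. Of the 24 measured genes of the Pi16 and Dpp4 list, 1 was higher and 3 were lower, with a list median log2 of -0.09. These counts lie near the shares over all genes, 8.19% higher and 9.4% lower, so no difference of the list is read from them. Among Pi16-dominant cells alone 3 of 25 measured genes were higher (Opcml, Dpp4 and Efemp1) and 2 were lower (Tppp3 and Mfap5). The list median log2 was then 0.25, and these counts also lie near the shares over all genes, 7.98% higher and 8.92% lower. Dpp4 was 259 CPM in Met-1 transplant and 92.2 CPM in PyMT tumour members, and 355 CPM in the Pi16-dominant cells of the Met-1 transplant alone, 3.85-fold higher (95% interval 2.12 to 7.81). Mfap5 was 1852 CPM in Met-1 transplant and 5384 CPM in PyMT tumour members, and Tppp3 was 317 and 1031 CPM.

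Of 11 measured myofibroblast genes 5 were lower in Met-1 transplant members and 0 were higher, Postn, Cthrc1, Cilp and Col12a1 among the lower; Cilp and Col12a1 were part of the selection score. Postn, which encodes the matrix protein periostin, was 580 CPM in Met-1 transplant members (0 to 79 UMIs per cell, median 1) and 2767 CPM in PyMT tumour members (0 to 152 UMIs, median 13.5), 4.77-fold lower (95% interval 4.16 to 5.45). It was detected in 44 of 80 Met-1 transplant and 9 of 10 PyMT tumour members, and the ranges overlapped. Without the top cells the log2 ratio of Postn was -1.69 instead of -2.23. The proteoglycan Bgn was 1523 CPM in Met-1 transplant and 3891 CPM in PyMT tumour members, and Cthrc1 was 218 and 570 CPM. In Met-1 transplant myofibroblastic cells these genes stood at 3188 CPM (Postn), 4466 CPM (Bgn) and 178 CPM (Cthrc1). For Col12a1 13 of the 20 PyMT tumour UMIs lay in 1 cell, and its log2 ratio was -0.28 without the top cells.

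**Figure D4:**
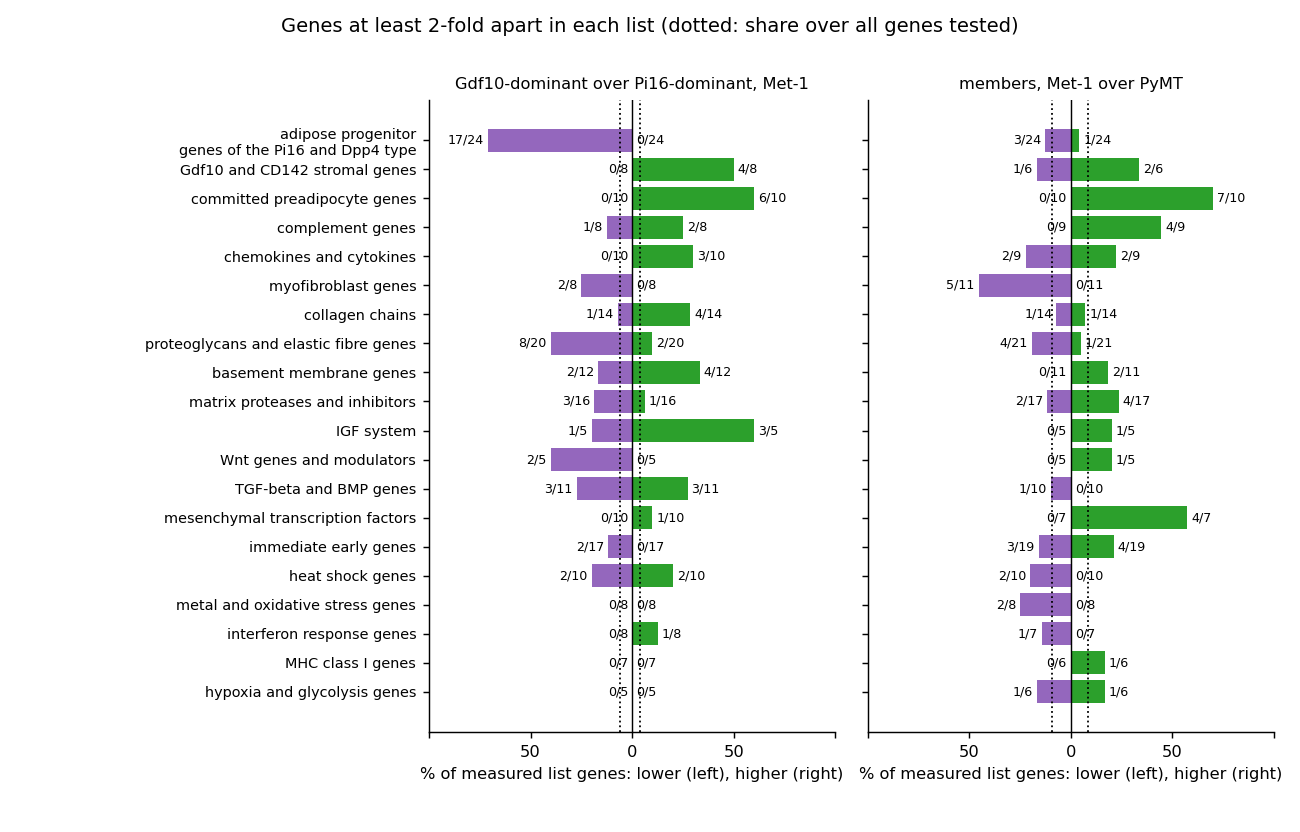
Share of measured genes in each list that were at least 2-fold higher (green, right) or lower (purple, left), for Gdf10-dominant over Pi16-dominant cells of the Met-1 transplant (left panel) and Met-1 transplant over PyMT tumour members (right panel), with counts beside the bars; lists with at least 5 measured genes in both are shown. Dotted lines mark the share over all genes tested (3.87% and 5.98% at left, 8.19% and 9.4% at right), and the Pi16 and Dpp4 list reaches 17 of 24 lower at left but 3 of 24 at right.

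Several genes at both ends of this comparison differed in the same direction in T cells of the same libraries. Lars2, a mitochondrial leucyl-tRNA synthetase, had 398 UMIs in Met-1 transplant members and 1 in PyMT tumour members, a 43.2-fold ratio (95% interval 7.71 to 1710), and was 201 CPM in Met-1 transplant and 9.21 CPM in PyMT tumour T cells. Serp1, a protein of the endoplasmic reticulum, was 71.9 CPM in Met-1 transplant and 436 CPM in PyMT tumour members, beside 116 and 193 CPM in T cells. Jun, an immediate early transcription factor, was 1888 CPM in Met-1 transplant and 352 CPM in PyMT tumour members, beside 348 and 161 CPM in T cells. Nr4a1, another, was 78.2 CPM in Met-1 transplant and 402 CPM in PyMT tumour members, beside 134 and 244 CPM in T cells. The immediate early list had 4 genes higher and 3 lower of 19. Apoe differed in the other direction in T cells, with 216 CPM in the Met-1 transplant and 414 CPM in the PyMT tumour. What part free RNA or library preparation had in these ratios was not tested.

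**Figure D5:**
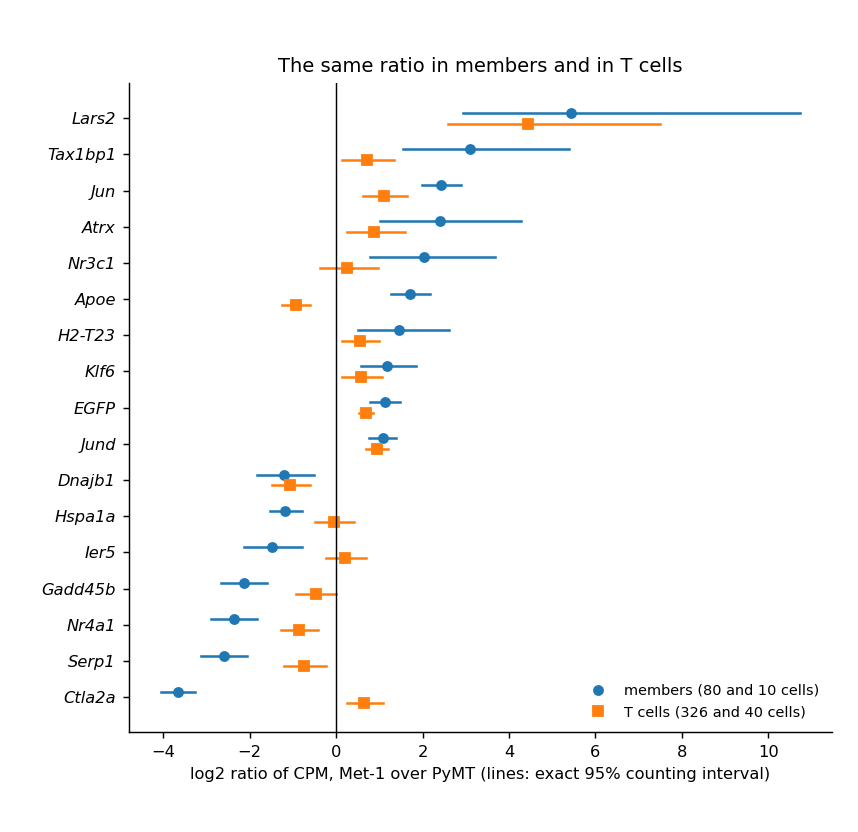
Log2 ratio of CPM, Met-1 transplant over PyMT tumour, in members (circles, 80 and 10 cells) and in T cells (squares, 326 and 40 cells) for 17 named genes that were at least 2-fold apart in members and averaged at least 100 CPM in T cells; lines are exact 95% counting intervals. Lars2 and Serp1 lie on the same side of 0 in both cell types, whereas Apoe, Ctla2a and Ier5 do not.

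Tmem176b had 275 UMIs in 39 of 80 Met-1 transplant members and 0 UMIs in PyMT tumour members, at least 9.95-fold higher against a floor of 3 counts over the group. T cells differed in the same direction, with 45.1 CPM of Tmem176b (129 UMIs) in the Met-1 transplant and 9.21 CPM (2 UMIs) in the PyMT tumour. It was also higher in Gdf10-dominant cells (570 CPM) than in Pi16-dominant cells (114 CPM) of the Met-1 transplant. Among the other highest genes, Sned1, Abi3bp and Nfib were 435, 806 and 433 CPM in Met-1 transplant members against 58.7, 168 and 92.2 CPM in PyMT tumour members. Kcnq1ot1, Tax1bp1 and Lgi2 had 3 UMIs each in PyMT tumour members, with ratios of 9.37 (95% interval 3.17 to 45.7), 8.57 (2.90 to 41.9) and 7.74 (2.61 to 37.8). Atrx and Gda, also among the 12 highest, had 4 and 5 UMIs in PyMT tumour members. In T cells Tax1bp1, Atrx and Kcnq1ot1 were 188, 178 and 101 CPM in the Met-1 transplant. In the PyMT tumour they were 115, 96.7 and 64.4 CPM. Sned1, Abi3bp, Nfib, Lgi2 and Gda had at most 4 UMIs in T cells of either library. Prg4, which encodes a lubricating proteoglycan, was 235 CPM in Met-1 transplant and 50.3 CPM in PyMT tumour members.

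Among the lowest genes some rested on 1 PyMT tumour cell. Ctla2a had 113 of its 126 PyMT tumour UMIs in 1 cell, and its log2 ratio of -3.51 became -1.25 without the top cells. Sgk1, a stress-responsive kinase, had 27 of 35 in 1 cell, and its log2 ratio of -1.94 became -0.34. Spread over more cells, Mt2, a metal-binding metallothionein, was 336 CPM in Met-1 transplant members (52 of 80 cells) and 1384 CPM in PyMT tumour members (9 of 10 cells). Serp1 UMIs were present in 37 of 80 Met-1 transplant members and in 10 of 10 PyMT tumour members. Hes1, a target of Notch signalling, was 47.3 CPM in Met-1 transplant and 218 CPM in PyMT tumour members. Rcan1, Hk2 and Gadd45b were 35.5, 55.5 and 87.3 CPM in Met-1 transplant members against 277, 285 and 386 CPM in PyMT tumour members.

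Because all PyMT tumour members were Pi16-dominant, the 53 Pi16-dominant cells of the Met-1 transplant were also compared with them. Of 1479 genes, 118 were higher (7.98%) and 132 were lower (8.92%), or 152 and 91 when centred on the median log2 ratio of -0.16. C3 was 4.59-fold higher, at 2349 CPM in Met-1 transplant and 512 CPM in PyMT tumour cells. Opcml, a cell adhesion protein of the Pi16 and Dpp4 list, had 157 UMIs in 40 of 53 Met-1 transplant cells and 1 UMI in 1 of 10 PyMT tumour cells, a ratio of 24.4 (95% interval 4.32 to 972). Plpp3, a lipid phosphatase, was 1715 CPM in Met-1 transplant and 352 CPM in PyMT tumour cells. Cxcl1, a chemokine that attracts neutrophils, was 86.2 CPM in Met-1 transplant cells (11 of 53 cells) and 864 CPM in PyMT tumour cells (7 of 10 cells), 10.0-fold lower. Neutrophil marker UMIs stood at 7.84 CPM in Met-1 transplant and 101 CPM in PyMT tumour cells, and their part in the Cxcl1 value was not tested. Postn was 731 CPM in Met-1 transplant and 2767 CPM in PyMT tumour cells, 3.78-fold lower.

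The last comparison set the Met-1 transplant members against the myofibroblastic cells of the same library. The rule drew that line, so all of these values are descriptions. Of 1583 genes, 165 were higher in members (10.4%) and 171 were lower (10.8%), or 195 and 135 when centred on the median of -0.16. Outside the score, Efemp1, the matrix protein fibulin-3, was 1121 CPM in members and 1.59 CPM in myofibroblastic cells, and Pcolce2, which promotes collagen processing, was 697 and 1.27 CPM. Dpt, the matrix protein dermatopontin, was 1874 CPM in members and 38.4 CPM in myofibroblastic cells. Cd34, a surface protein of stem and stromal cells, had 859 UMIs in 74 of 80 members and 41 UMIs in 14 of 169 myofibroblastic cells, a 60.1-fold ratio. C4b, a complement component, was 1467 CPM in members and 12.1 CPM in myofibroblastic cells, and the Wnt inhibitor Sfrp4 was 883 and 3.49 CPM. Spp1, which encodes osteopontin, was 11.8 CPM in members and 5704 CPM in myofibroblastic cells. The contractile genes Tagln and Acta2 were each 14.6 CPM in members, against 1994 CPM of Tagln and 1404 CPM of Acta2 in myofibroblastic cells. The collagenase Mmp13 had 0 UMIs in members and 493 CPM in myofibroblastic cells, at least 180-fold lower, although 460 of those 1552 UMIs lay in 1 cell.

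The lists followed the same line. Of 21 measured genes of the Pi16 and Dpp4 list 18 were higher in members and 0 lower, the score genes Clec3b, Pi16 and Ly6c1 among them. Of 22 measured myofibroblast genes 19 were lower and 0 higher, the score genes Cilp, Thbs4, Tnc, Col12a1 and Col8a1 among them. Of 16 collagen chains 9 were lower in members, all of them types IV, V, VI, VIII, XII or XV, with the score genes Col8a1 and Col12a1 among them. Col3a1, a rule gene, was 12288 CPM in members and 7336 CPM in myofibroblastic cells, whereas Col1a1 was 7451 and 13561 CPM. Dcn, the collagen-binding proteoglycan decorin, was 11075 CPM in members and 1877 CPM in myofibroblastic cells. Of 10 chemokines and cytokines 7 were higher in members and 1 was lower. Ccl11, which attracts eosinophils, was 687 CPM in members and 104 CPM in myofibroblastic cells, Il33 was 488 and 136 CPM, and Cxcl9, an interferon-induced chemokine, was 3.64 and 330 CPM. All 4 measured MHC class II genes were lower in members, with 76.4 CPM of H2-Ab1 in members and 177 CPM in myofibroblastic cells, and 147 of the 559 myofibroblastic UMIs of H2-Ab1 lay in 1 cell. Macrophage marker UMIs stood at 278 CPM in members and 387 CPM in myofibroblastic cells, or 100.2 and 300.3 CPM without the top cell of each group, and their part in the MHC class II values was not tested. The immediate early list had 9 of 18 genes higher and 1 lower, with Fos at 2317 CPM in members and 468 CPM in myofibroblastic cells.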

How the data were processed

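RNA of sorted single cells was measured once for each tumour. The authors' deposited matrices hold whole UMI counts for every gene and barcode. Per the submitters' processing notes, Cell Ranger 3.1.0 and build mm10 were used; for the annotation, no release is given in the sources used here. Both matrices list the same 31054 gene rows. Doublets were called with Scrublet (scanpy 1.11.5), which marked 20 Met-1 transplant barcodes, 0 of them members, and 0 PyMT tumour barcodes; no barcode was removed for it in the main values. As it marked 0 PyMT tumour barcodes, doublets there are unchecked.

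The members and gene lists were chosen with earlier results of these data known. UMIs of all cells in a group were added up per gene and expressed as CPM. With 1 library per tumour no test was run; intervals (95%) are exact Poisson for CPM, exact conditional binomial for ratios and Clopper-Pearson for shares (scipy 1.17.1), and cover counting error only. Genes needed a mean of 100 CPM, a pseudocount of 10 CPM was added, and 2-fold was the limit for a call. Named genes were the 12 highest and 12 lowest of each comparison, leaving out mitochondrial, ribosomal, haemoglobin, predicted and antisense rows, together with rule and marker genes, EGFP and list genes past 2-fold. T cells needed at least 3 UMIs of Cd3d, Cd3e and Cd3g and at most 3 macrophage marker UMIs. Shares of cells were also taken after thinning to 1000 UMIs per cell. A simulation with known fold changes was run on the same scripts. Alternatives were other pseudocounts, filters, cell limits, centring, per-cell means, and dropping, gene by gene, the cell with the most UMIs. Marker levels without the cell richest in them were added after seeing the data. Promoters came from the RefSeq table of GRCm38.p6, which holds no entry for Clec3b. Some genes that the rule names are not reported here.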

Additional observations from a re-analysis of the deposited data

Results flagged for a closer look

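Above the mitochondrial limit, 5 Met-1 transplant barcodes met all other limits for members, of 316 barcodes above it; in the PyMT tumour the number was 0 of 27. They lie outside every comparison, and stand out as a signal in data that were left out.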

How the results depend on the processing

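The share of members in each library moved by less than its interval under every alternative run. With a pseudocount of 50 CPM, 90 genes were lower in Met-1 transplant than in PyMT tumour members, and among Pi16-dominant cells 76 were higher and 79 lower. With 50 UMIs in at least 1 group as the filter, 516 genes were higher in Met-1 transplant members, 347 higher in their Pi16-dominant cells, 370 higher and 619 lower in members than in myofibroblastic cells, and 161 lower in Gdf10-dominant cells. With 50 UMIs in both groups, 10 were higher and 50 lower in Met-1 transplant members, 10 and 48 in Pi16-dominant cells, and 29 lower in Gdf10-dominant cells. Without the top cell of each gene, 77 were lower in Met-1 transplant members and 72 in their Pi16-dominant cells. These settings change which genes are tested or how low genes weigh. Between Gdf10-dominant and Pi16-dominant cells, Hspb1 reversed to a log2 ratio of -0.42 with a difference of at least 3 UMIs and to -0.49 without the top cells. No paired analysis was possible because each group has 1 library. With 10 PyMT tumour members, 3 UMIs amount to 25.2 CPM, so low genes are not resolved there.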
